A study of Bos taurus with 14 samples.

Results

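The microRNAs bta-miR-33a and bta-miR-33b were examined in blood plasma and leucocytes of cows fed a forage diet (FD) or a high-grain diet (HG). Both were taken by name from the deposited miRNA tables, and they are 2 of the 932 miRNA names found in the 14 libraries, of which 642 occurred in plasma and 916 in leucocytes. The pair was selected on its read counts by tissue and diet: miR-33a stood higher in plasma and lower in leucocytes on HG. These diet differences are therefore given as a description, with no test.

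MiR-33a and miR-33b are intronic miRNAs of the genes for the sterol regulatory element binding proteins, the transcription factors that switch on cholesterol and fatty acid synthesis. MiR-33a is hosted by SREBF2 and miR-33b by SREBF1. Both are known as repressors of ABCA1, the transporter that moves cholesterol out of macrophages and liver cells onto high-density lipoprotein, and of enzymes of fatty acid oxidation, so that the host gene and its miRNA act on the same lipid pool.

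The animals were ruminally cannulated, non-lactating Holstein cows. They received forage alone (0% concentrate) and were then moved to a diet with 65% concentrate, which was meant to bring on subacute ruminal acidosis, a drop of ruminal pH; the HG blood was taken in week 1. Small RNA was sequenced from the plasma of 4 cows and from the leucocytes of 3 of them (cows 1, 3 and 4) on each diet, which gave 8 plasma and 6 leucocyte libraries. Leucocytes were the buffy coat of EDTA blood and plasma was centrifuged a second time to remove cells. Every cow had forage first, so diet and time on trial cannot be told apart.

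The plasma libraries held 376589 to 4464702 reads assigned to miRNAs and the leucocyte libraries 21764579 to 66070770. Levels are given as reads per 1000000 reads assigned to miRNAs in that library (RPM). A count of 3 reads, the one-sided limit taken here for a count of 0 (below the upper end of the 2-sided intervals drawn for single libraries), was worth 0.672 to 7.97 RPM in plasma and 0.0454 to 0.138 RPM in leucocytes. The leucocyte marker miRNAs (8 of 8 found in every library, such as bta-miR-142-5p and bta-miR-150) took 3.27 to 5.28% of the reads in leucocytes and 2.40 to 3.48% in plasma. Erythrocyte markers (4 of 4, led by bta-miR-451) took 29.8 to 42.6% in leucocytes and 5.66 to 18.5% in plasma, so the leucocyte samples also carried red cell miRNAs. Liver markers (3 of 3, with bta-miR-122) took 0.837 to 7.04% in plasma and 0.123 to 0.147% in leucocytes. The platelet and endothelium marker bta-miR-126 (2 of 2 arms) took 0.229 to 0.543% in plasma and 0.00467 to 0.0206% in leucocytes. In bulk samples like these, fewer cells of a type and less RNA per cell cannot be told apart.

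The files placed mature bta-miR-33a on chromosome 5 of the UMD3.1 cattle genome, at chr5:113410755-113410775 on the plus strand, over 21 bases. Mature bta-miR-33b lay at chr19:35249067-35249086, also on the plus strand, over 20 bases. In the RefSeq gene table of a later assembly, ARS-UCD2.0, MIR33A fell inside the span of SREBF2 and MIR33B inside that of SREBF1. No human or other-arm name with miR-33a or miR-33b occurred (0 names). In 28 of 28 library values of the pair, the reads before and after division among multi-mapping names were equal, so neither member shared reads with another name.

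In plasma on FD, miR-33a was close to the limit of detection. It had 0 reads in cow 1, 3 in cow 2 (2.10 RPM), 0 in cow 3 and 4 in cow 4 (1.29 RPM). On HG it had 4 reads in cow 1 (0.896 RPM), 73 in cow 2 (74.8 RPM), 9 in cow 3 (8.47 RPM) and 45 in cow 4 (13.2 RPM). The HG libraries of cows 2, 3 and 4 stood above every FD library, and that of cow 1 lay within the FD range, so the groups overlapped through cow 1. The mean level was 0.849 ± 1.03 RPM on FD and 24.4 ± 34.0 RPM on HG (SD, n = 4 each), with the library of cow 2 contributing most of the HG mean; the HG median was 10.9 RPM.

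Cow numbers follow the study's own tables, since the plasma labels do not name the animal. Within cows, the plasma difference could be sized in 2 of 4 animals. In cow 2 the HG level was 35.6 times the FD level, with a 95% counting interval of 11.7 to 177. In cow 4 it was 10.2 times the FD level (3.73 to 39.2). Cow 3 had no FD read, and its HG level was at least 4.96-fold higher against the value of 3 reads in its FD library, with a lower 95% counting limit of 3.26. Cow 1 gave no direction beyond counting error: its FD library was the smallest of all, and the HG level of this cow would have given 0.337 reads there. The intervals are exact ones for read counts and cover counting error only, since reads without molecular identifiers are not independent molecules. No count under 2 was listed, so the FD values of 0 in cows 1 and 3 may hide reads. The intervals and the value of 3 reads do not allow for this.

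**Figure D1:**
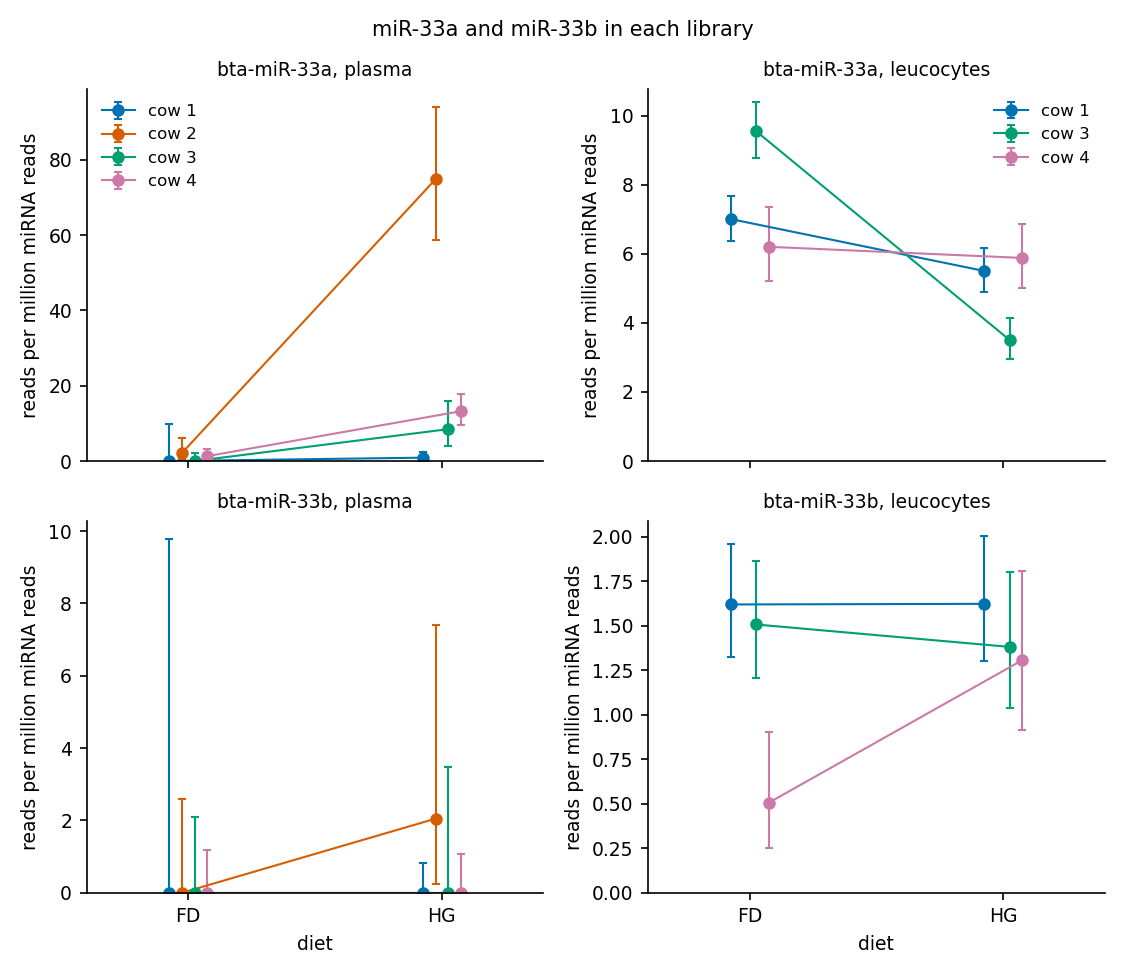
RPM (y axis) of bta-miR-33a (top) and bta-miR-33b (bottom) by diet (x axis) in plasma (left) and leucocytes (right); each point is 1 library, lines join the libraries of 1 cow and bars are exact 95% Poisson intervals. In plasma miR-33a reaches 74.8 RPM in cow 2 on HG and at most 2.10 RPM on FD. In leucocytes every HG point of miR-33a lies below every FD point, while the miR-33b groups overlap.

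The fit across all plasma names gave miR-33a a log2 fold change of 4.00 (SE 1.35), HG minus FD with cow as a block, which ranked 59th from the top of 536 names. The median log2 fold change of all plasma names was 0.26. As the mean of the paired differences of log2(RPM + 1), a scale that understates changes of low values, the difference was 2.85 ± 1.53 (SD, n = 4), with HG higher in 4 of 4 cows, in cow 1 by less than the counting error. In this comparison 0 of 536 names passed an adjusted p of 0.05 by edgeR's quasi-likelihood test (0%), the smallest adjusted p being 0.503; 46 names had an unadjusted p under 0.05 and DESeq2 called 12. Leaving out cow 2 left the miR-33a estimate at 3.97 (SE 2.13).

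Other measures moved with diet in the same plasma libraries. As a sum, the leucocyte markers took 2.40 to 2.95% of reads on FD and 3.16 to 3.48% on HG. This sum was higher in 4 of 4 cows and did not overlap between diets. By group mean, bta-miR-142-3p (945 to 766 RPM) and bta-miR-146a (1197 to 864 RPM) were lower on HG, the other members higher. The share of analysed reads that were assigned to miRNAs was 39.3 to 58.1% on FD and 59.3 to 72.05% on HG, and the number of names detected was 410 to 454 on FD and 504 to 538 on HG. The erythrocyte markers had no common direction, at 8.92 to 18.5% on FD and 5.66 to 17.4% on HG. In the liver list, bta-miR-122 (39338 to 17147 RPM) and bta-miR-192 (8315 to 6657 RPM) had lower group means on HG. The mean of bta-miR-194 was higher (1062 to 1473 RPM). As a sum, liver markers were lower on HG in cows 2, 3 and 4 and higher in cow 1. The platelet and endothelium marker had the reverse pattern, going from 0.249 to 0.405% in cow 2, from 0.359 to 0.492% in cow 3 and from 0.522 to 0.543% in cow 4, and from 0.351 to 0.229% in cow 1. The part of each of these, and of depth, in the plasma levels of miR-33a was not tested.

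In leucocytes miR-33a was detected in every library at a middle rank, between 313th and 392nd of the 730 to 812 names found per library. On FD it had 463 reads in cow 1 (7.01 RPM), 539 in cow 3 (9.56 RPM) and 135 in cow 4 (6.20 RPM). On HG it had 295 reads in cow 1 (5.50 RPM), 137 in cow 3 (3.50 RPM) and 162 in cow 4 (5.88 RPM). The groups did not overlap, but the lowest FD and the highest HG value, both from cow 4, lay close together. MiR-33a was chosen for this direction, and no share of all leucocyte names without overlap is given beside it. The lack of overlap is thus only a description. Group means were 7.59 ± 1.75 RPM on FD and 4.96 ± 1.28 RPM on HG (SD, n = 3 each).

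The size of the leucocyte difference was set mainly by cow 3. There the HG level was 0.367 times the FD level (95% counting interval 0.302 to 0.443). In cow 1 the ratio was 0.785 (0.676 to 0.911), and in cow 4 it was 0.948 (0.750 to 1.20), an interval that holds 1. The fit over 779 leucocyte names gave a log2 fold change of -0.63 (SE 0.275), the 91st lowest, and -0.18 (SE 0.349) without cow 3. The median log2 fold change of all leucocyte names was -0.02, and edgeR called 1.41% of names lower and 0.385% higher on HG at an adjusted p under 0.05.

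The marker lists in leucocytes, as sums in which single members could go the other way, moved as follows beside miR-33a. Higher group means on HG were those of bta-miR-486 (44761 to 59374 RPM), bta-miR-223 (5120 to 5757 RPM), bta-miR-342 (3188 to 3424 RPM) and bta-miR-192 (593 to 615 RPM). The other listed members had lower group means on HG. Bta-miR-451 made up most of the erythrocyte sum (310269 RPM on FD, 309155 RPM on HG), while bta-miR-144 was lower in every cow. The leucocyte markers went from 4.54 to 3.75% of reads in cow 1 and from 5.28 to 3.27% in cow 4 and went from 4.38 to 5.14% in cow 3, the cow with the lowest HG to FD ratio of miR-33a. Erythrocyte markers went from 40.7 to 42.6% in cow 1, from 38.3 to 36.1% in cow 3 and from 29.8 to 33.1% in cow 4. Liver markers went from 0.128 to 0.134% in cow 1, from 0.130 to 0.123% in cow 3 and from 0.147 to 0.127% in cow 4. The platelet and endothelium marker stayed at 0.00467% in cow 1 and was lower on HG in cow 3 (0.00657 to 0.00578%) and cow 4 (0.0206 to 0.0104%). In cow 3 the erythrocyte, liver and platelet lists were lower on HG together with miR-33a. In cow 1, where miR-33a was also lower, the erythrocyte and liver lists were higher. In cow 4, where miR-33a did not differ beyond counting error, the liver and platelet lists were lower and the erythrocyte list higher. The part of any list in the miR-33a levels was not tested.

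**Figure D2:**
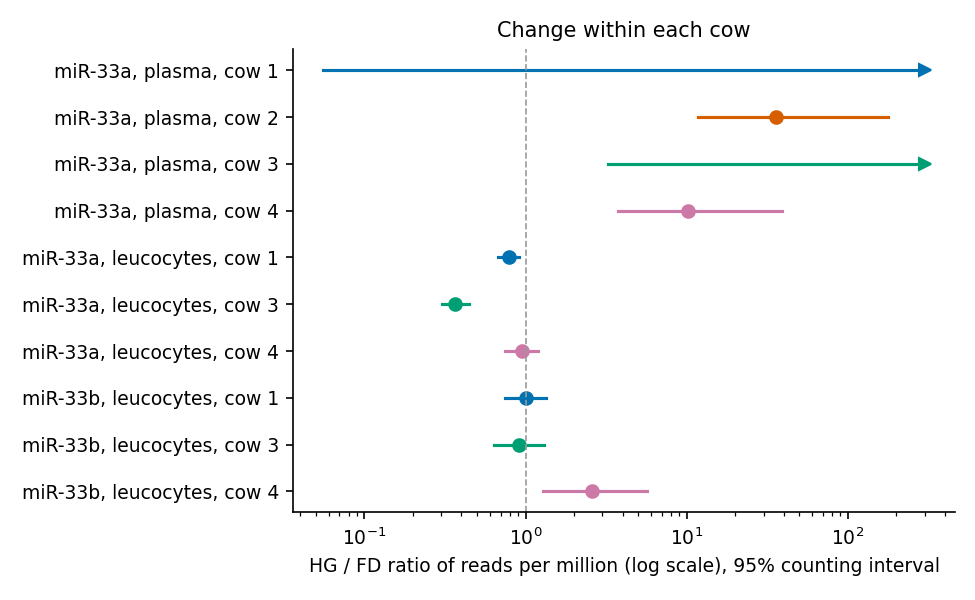
Ratio of the HG to the FD level within each cow (x axis, log scale) for bta-miR-33a and bta-miR-33b in the tissue named on the y axis; points are ratios of RPM, lines exact 95% counting intervals, arrows mark intervals with no upper bound because the FD library had no read, and the dashed line is a ratio of 1. The whole interval lies above 1 for miR-33a in plasma of cows 2, 3 and 4 and for miR-33b in leucocytes of cow 4, and below 1 for miR-33a in leucocytes of cows 1 and 3; the others hold 1.

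The diet difference of miR-33a had opposite signs in the 2 sample types, and the paired differences in log2(RPM + 1) were 0.92, 4.61, 3.24 and 2.63 in the plasma of cows 1 to 4. They were -0.30, -1.23 and -0.07 in the leucocytes of cows 1, 3 and 4. Since the pair was chosen for these directions, the difference between sample types was not tested.

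MiR-33b was the scarcer member and was almost absent from plasma. It had 2 reads in the HG library of cow 2 (2.05 RPM, exact 95% interval 0.248 to 7.41) and 0 reads in the other 7 plasma libraries. Those 2 reads lay under the value of 3 reads in that library, and the library was the one in which miR-33a was highest. Because miR-33b had fewer than 10 reads over the plasma libraries, no diet difference was fitted there.

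In leucocytes miR-33b was found in 6 of 6 libraries. On FD it had 107 reads in cow 1 (1.62 RPM), 85 in cow 3 (1.51 RPM) and 11 in cow 4 (0.505 RPM). On HG it had 87 reads in cow 1 (1.62 RPM), 54 in cow 3 (1.38 RPM) and 36 in cow 4 (1.31 RPM). Only the FD library of cow 4, the smallest leucocyte library, stood apart, and the groups overlapped.

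The leucocyte level of miR-33b was 1.21 ± 0.613 RPM on FD and 1.44 ± 0.165 RPM on HG (SD, n = 3 each). The HG to FD ratio was 1.002 in cow 1 (95% counting interval 0.746 to 1.34), 0.916 in cow 3 (0.639 to 1.30) and 2.59 in cow 4 (1.29 to 5.63). Only in cow 4 did the interval exclude 1. The fitted log2 fold change was 0.29 (SE 0.341), and it turned to -0.082 (SE 0.252) when cow 4 was left out.

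The 2 members did not keep a fixed ratio in leucocytes. MiR-33a had 4.33 times the reads of miR-33b in cow 1, 6.34 times in cow 3 and 12.3 times in cow 4 on FD. On HG it had 3.39, 2.54 and 4.50 times as many in the same order. The ratio was lower on HG in 3 of 3 cows, although the groups overlapped between the FD value of cow 1 and the HG value of cow 4, and the means were 7.65 ± 4.13 and 3.48 ± 0.984 (SD, n = 3 each). As it is built from the counts that chose the pair, this too is a description.

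Each count was made up of a number of distinct read sequences, such as full-length and trimmed forms of the mature miRNA. The 73 plasma reads of miR-33a in cow 2 on HG came from 2 distinct sequences, while the 54 names with a similar count in that library (within 1.5-fold) had a median of 6. In cow 4 on HG its 45 reads came from 2 sequences, against a median of 3. The 9 reads of cow 3 came from 3 sequences, against a median of 2. Both high plasma counts of miR-33a thus came from few sequence forms.

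In leucocytes miR-33a had 12, 15 and 5 distinct sequences on FD in cows 1, 3 and 4, below the medians of 20, 21 and 8 for names with similar counts. On HG it had 9, 10 and 7, against medians of 15.5, 10 and 11. MiR-33b had 7, 4 and 3 on FD and 4, 2 and 6 on HG, against medians of 10, 8 and 2 and of 8, 6 and 5. In 9 of the 12 leucocyte values the member had fewer forms than names of similar count.

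**Figure D3:**
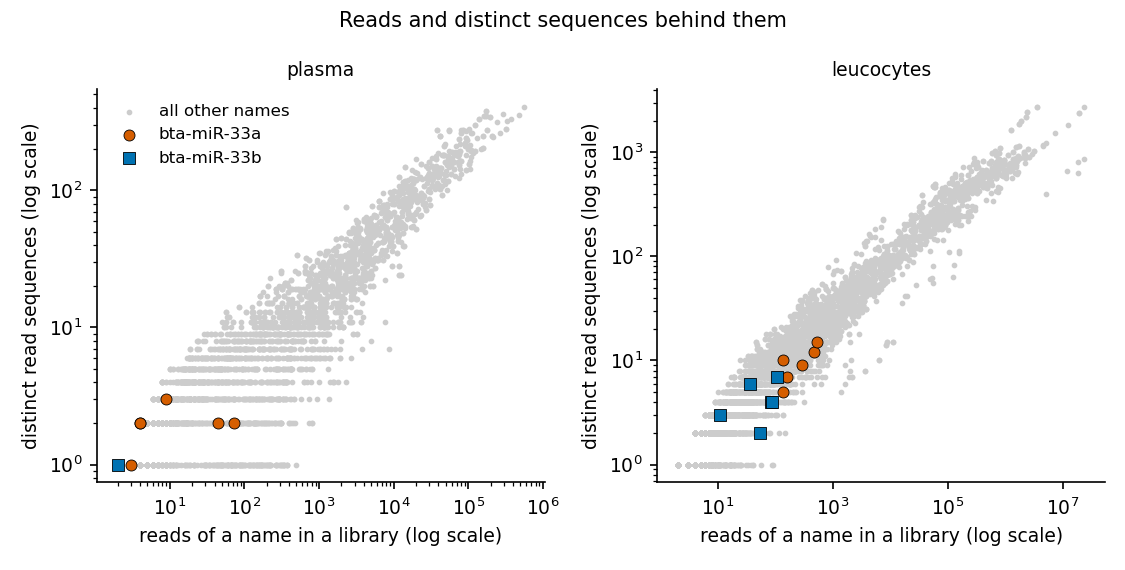
Distinct read sequences (y axis, log scale) against reads (x axis, log scale) of each name in each library, for plasma (left) and leucocytes (right); grey points are all other names, circles bta-miR-33a and squares bta-miR-33b. The 2 highest miR-33a counts in plasma, 73 and 45 reads, sit at 2 distinct sequences, at the lower side of the grey cloud.

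Plasma and leucocytes were then compared. The pair was chosen on the diet difference within each sample type. The tissue difference averaged over the diets is another contrast of the same counts. Its p thus stands on values that were known when the pair was chosen and is no independent support. In the edgeR fit over all 14 libraries with cow as a block, miR-33a was lower in plasma, averaged over the diets. The log2 difference was -2.76 (SE 0.876, adjusted p = 0.0211, edgeR), and it joined -4.88 on FD with -0.65 on HG. The median of all 797 names in this comparison was -1.35, and 26.9% of names were called lower and 19.6% higher in plasma. The call did not hold in all settings: without the cow block the difference was -1.09 (adjusted p = 0.269), without cow 1 it was -2.52 (adjusted p = 0.0781), and without cow 3 it was -2.46 (adjusted p = 0.123), with adjusted p between 0.000554 and 0.652 over the 15 alternatives. The cow block across tissues takes the cow numbers of plasma and of leucocytes as 1 numbering.

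Within each diet the tissue difference of miR-33a follows from the values that chose the pair and is given with no test. On FD the fitted log2 difference was -4.88, and 4 of 4 plasma libraries (0 to 2.10 RPM) were below every leucocyte library (6.20 to 9.56 RPM), although the value of 3 reads in the FD library of cow 1 was itself 7.97 RPM. On HG the fitted difference was -0.65, with leucocytes at 3.50 to 5.88 RPM. Plasma was above that range in cows 2, 3 and 4 (74.8, 8.47 and 13.2 RPM). Only cow 1 was below it, at 0.896 RPM from 4 reads, so the fitted sign ran against most HG plasma libraries. Pooled reads gave a plasma to leucocyte ratio of 0.133 on FD (95% counting interval 0.0535 to 0.276) and of 2.68 on HG (2.199 to 3.24), which was 1.32 (0.987 to 1.72) without the HG plasma library of cow 2; these intervals leave out the spread between cows. Over both diets the pooled ratio was 1.27 and the mean RPM was also higher in plasma (12.6 ± 25.6, n = 8, against 6.28 ± 1.99, n = 6), opposite in sign to the fitted average of log values, and cow 2 on HG gave 73 of the 138 plasma reads. Without that library the pooled ratio was 0.637 (0.490 to 0.817).

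MiR-33b had lower pooled reads in plasma than in leucocytes. All 6 leucocyte libraries had reads of it, against 1 of 8 plasma libraries. The 2 reads among 16554936 plasma miRNA reads compare with 23.8 that the pooled leucocyte level would give, a ratio of 0.0841 (95% counting interval 0.0101 to 0.306). This interval leaves out the spread between cows. It also leaves out any plasma reads that fell under the smallest count listed, so the true ratio may be higher. The name passed the filter on low counts only through the leucocytes, where it is high, so its fitted test is not given as support. Of the 8 plasma libraries, 3 could have shown the mean leucocyte level with 3 reads and 0 the lowest one. Plasma and leucocytes differed in RNA kit and in depth as well as in tissue, and these cannot be told apart.

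The names whose levels ran most like miR-33a across libraries differed between the sample types. Among 315 leucocyte names with a mean of at least 10 RPM, the closest over the 6 libraries were bta-miR-499 (Pearson's r of log2(RPM + 1) 0.824), bta-miR-2285bf (0.821) and bta-miR-32 (0.792). Without the library highest in miR-33a the values were 0.647, 0.772 and 0.717. Among 409 plasma names the closest over 8 libraries were bta-miR-11978 (0.869, and 0.674 without the HG library of cow 2) and bta-miR-494, which the files list with the same values under a human name, hsa-miR-494-3p (0.864, and 0.728). These correlations are descriptions, as the libraries share cows, diet and depth.

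Other miRNAs known to act on cholesterol handling were read beside the pair. The list of 21 names comprised repressors of ABCA1, miRNAs that act on the LDL receptor, SR-BI or MTTP, liver miRNAs of lipid synthesis, and the miR-96, miR-182 and miR-183 cluster that SREBP-2 switches on. In each tissue 20 were tested. The remaining one, bta-miR-758, was under the filter, with at most 0.0746 RPM in leucocytes and 0 reads in plasma.

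In plasma 0 of the 20 names were called, 0 had an unadjusted p under 0.05 by edgeR, and DESeq2 called 0. Over all 536 plasma names the calls were likewise 0 (0%), and 46 had an unadjusted p under 0.05. Of the 20 names, 10 were higher and 10 lower on HG, with a median log2 fold change of -0.03 against 0.26 for all names. The highest estimate was that of bta-miR-370, which acts on lipid metabolism in liver: 1.75 (SE 1.07, adjusted p = 0.705), from 1.29 to 7.97 RPM on FD to 9.23 to 22.4 RPM on HG. The groups of this miRNA did not overlap, yet the difference did not pass the test. Its highest FD value, 7.97 RPM in cow 1, was worth 3 reads there, so the gap to the lowest HG value rests on few reads. The lowest was that of bta-miR-122, the main miRNA of the hepatocyte, at -1.55 (SE 1.08, adjusted p = 0.799). It had 5170.1, 52544, 61652 and 37988 RPM in cows 1 to 4 on FD and 23761, 14689.7, 10577 and 19560.2 RPM on HG, so that cow 1 ran opposite to the other 3 cows.

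In leucocytes 2 of the 20 names passed the test and both fell on HG, beside 1.41% of all 779 names called lower and 0.385% called higher. At an unadjusted p under 0.05 there were 3 higher and 4 lower on the list, and 58 higher and 58 lower among all names. Bta-miR-27a-3p, a repressor of ABCA1, had 1960.3, 2236 and 2953 RPM on FD in cows 1, 3 and 4 and 1567, 1324 and 1661 RPM on HG. The log2 fold change was -0.64 (SE 0.135, adjusted p = 0.0356, edgeR). Bta-miR-27a-3p was lower in 3 of 3 cows, as miR-33a was.

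Bta-miR-144, also a repressor of ABCA1 and an abundant miRNA of red cells, had 11285, 8223 and 3960.0 RPM on FD and 5503, 3524 and 3209.5 RPM on HG. It was lower in 3 of 3 cows, by a log2 fold change of -0.86 (SE 0.175, adjusted p = 0.0352, edgeR), although the groups overlapped. Neither call was firm: the count of list members called was 0 without cow 1, 0 without cow 3 and 0 without the cow block.

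The other 18 names on the list did not pass the test in leucocytes. Over all 20 names, 9 were higher and 11 lower on HG, with a median log2 fold change of -0.10 against -0.02 for all names. The highest estimate was that of bta-miR-185, which acts on the LDL receptor and SR-BI, at 0.44 (SE 0.130, adjusted p = 0.128). The cluster switched on by SREBP-2, the protein of the miR-33a host gene, had estimates of -0.05 for bta-miR-96, -0.32 for bta-miR-182 and -0.57 for bta-miR-183. Bta-miR-183 was the lowest of the names that did not pass (adjusted p = 0.354).

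**Figure D4:**
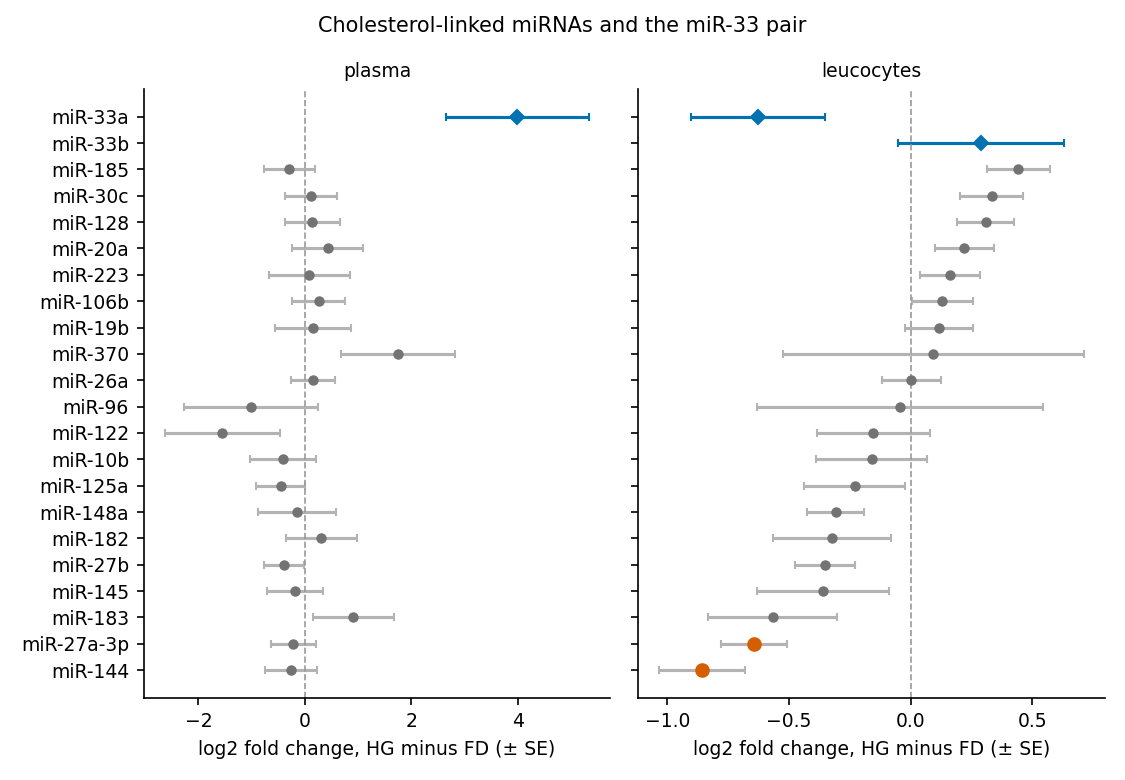
Log2 fold change, HG minus FD, with its standard error (x axis) for the miR-33 pair (diamonds, with no test) and 20 cholesterol-linked miRNAs (circles) in plasma (left) and leucocytes (right); orange circles passed an adjusted p of 0.05. MiR-33a lies at 4.00 in plasma, outside the range of the list, and at -0.63 in leucocytes, next to bta-miR-27a-3p at -0.64. It was chosen for these directions and had at most 4 reads in an FD plasma library, so its place beside the list is a description.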

How the data were processed

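Small RNA of 14 libraries was extracted with separate kits for plasma and leucocytes and sequenced by the authors, who demultiplexed with bcl2fastq 2.20, trimmed adapters and assigned reads to bovine and human miRNAs with sRNAbench on the UMD3.1 genome, allowing mismatches. The deposited files gave read counts per miRNA name, estimated counts divided by the authors among the names a read maps to, and counts of distinct sequences. The smallest count listed was 2, and a missing name was taken as 0. Such a 0 may hide reads too few to be listed, and the limits and intervals do not allow for this. Library totals were recovered from the deposited reads-per-million columns of the authors. The combined tables of the series were not used. No 2 libraries held identical values (0 pairs).

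Divided counts were rounded and names with at least 10 reads in total were fitted with edgeR 4.0.16 (R 4.3.3; TMM, robust quasi-likelihood test) with cow as a block, p-values being adjusted by the Benjamini-Hochberg method over all names. DESeq2 1.42.0 was an alternative. Tissue was compared over all 14 libraries. Leucocyte titles carry a letter for the cow and plasma titles name none. Plasma libraries were paired by the cow numbers of the study's own tables, which list the same counts under cows 1 to 4 for each diet. That leucocyte cows 1, 3 and 4 of those tables are the plasma cows of the same number is assumed from the shared numbering. Correlations of same-cow deviations from the group means were -0.315 to 0.236 in plasma and 0.552 to 0.734 in leucocytes, so in plasma the pairing rests on the study's numbering alone. Poisson and ratio intervals were exact, at 95%. In simulated data with a log2 fold change of 3 in 200 names, the fit recovered 44.5% in plasma (536 names), 89.5% in leucocytes (779) and 66.5% between tissues (797). Wrong calls were 3.26, 2.19 and 5.0% of the calls in the same order. The simulated counts held no differences between cows, and recovery was taken over names of all read levels. It thus does not show how often a scarce name such as miR-33a would be recovered. Named miRNAs were the pair, the cholesterol-linked list, the marker miRNAs and the 3 names most like miR-33a in each tissue. The members and lists were chosen with earlier results of these data known.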

Additional observations from a re-analysis of the deposited data

Results flagged for a closer look

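In 43 groups of 4 plasma libraries (the members and the cholesterol-linked list by diet), 7 held a library far from the other 3 by Dixon's test. Chance gives this in about 1 of 20 groups that are independent and normally distributed. These groups share libraries, so that rate is no measure of the 7. In 1 of the 7, that of miR-33b, the other libraries were at 0, where any reads are flagged. The miR-33a values also served to choose the pair. MiR-33a in cow 2 on HG stood at 74.8 RPM, with the other HG libraries at 0.896 to 13.2 RPM. MiR-33b stood at 2.05 RPM in the same library, where it had 2 reads and the other libraries of the group had 0. On FD, bta-miR-26a was at 44035 RPM in cow 1 (lowest library 19834 RPM), bta-miR-106b at 2899.7 RPM in cow 1 (lowest 729.7 RPM), bta-miR-27b at 15500.0 RPM in cow 3 (highest 20696 RPM) and bta-miR-96 at 154.8 RPM in cow 3 (lowest 3.88 RPM). On HG, bta-miR-223 was at 14512 RPM in cow 1 (lowest 6697 RPM). The FD library of cow 1 was also the smallest plasma library.

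The mean paired diet difference of miR-33a in log2(RPM + 1) was 3.38 higher in plasma than in leucocytes. It was above 0 in 4 of 4 plasma pairs and below 0 in 3 of 3 leucocyte pairs, although cow 1 in plasma and cow 4 in leucocytes did not differ beyond counting error. This difference was not tested, because the pair was chosen for it.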

How the results depend on the processing

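The diet difference of miR-33a kept its sign in all 12 alternatives in plasma (2.85 to 4.69) and all 11 in leucocytes (-0.91 to -0.18). The 2.85 is the mean paired difference of log2(RPM + 1) and not a fitted value. Since miR-33a was chosen for these signs and the alternatives use the same libraries, their constancy is no independent support. The fitted diet difference of miR-33b in leucocytes ranged from -0.082 to 0.60 when cows were left out in turn, and its sign turned without cow 4. MiR-33b had too few plasma reads for a fit. The tissue difference of miR-33a is fitted to the counts that chose the pair, so its calls are descriptions and no independent support. The tissue difference of miR-33a lost its call without the replicate block (-1.09) and on HG libraries alone (-0.65). With a cow left out it was -4.42 to -2.46. The call was lost without cow 1 (adjusted p = 0.0781, edgeR) and without cow 3 (adjusted p = 0.123, edgeR), and held without cow 2 or cow 4. Without the HG plasma library of cow 2, an alternative chosen after seeing the data, it was -3.21 (adjusted p = 0.0147, edgeR). The count of list members called in leucocytes fell from 2 to 0 with DESeq2's size factors, with a minimum of 50 reads, with no replicate block and with names of the same counts taken once, and was 0 to 3 with a cow left out. For these losses the cause was not tested. Counts over all leucocyte names, also added later, were 14 in the fit reported, 36 with DESeq2, 9 with size factors, 17 with no filter, 7 with a minimum of 50 reads, 16 undivided, 5 with equal names taken once, 0 without the replicate block and 0 (without cow 3), 9 (without cow 1) and 111 (without cow 4) in leave-one-out fits. In plasma they were 0 in the fit reported and 12 with DESeq2. Plasma depth limits both members: 3 reads were worth up to 7.97 RPM.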
